A study of Mus musculus with 12 samples.

Results

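The proteasome genes of mouse testis were described in 12 RNA-seq libraries. Members were all genes whose symbols run Psma, Psmb, Psmc or Psmd followed by a number, or Psme1 to Psme4, which gave 43 of the 20718 genes in the deposited table. They were split by known role into 5 immunoproteasome genes (Psmb8, Psmb9, Psmb10, Psme1 and Psme2), 2 testis genes (Psma8 and Psme4) and 36 other genes. The members took 0.498% to 0.522% of the reads of each library.

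The study changed a long noncoding RNA, lncRNA8276, in the testis by virus. All 4 groups were F0 mouse testes of a strain labelled IRC mouse, and each held 3 libraries made from total RNA. The OV group (labelled 8276OV) received a virus for overexpression of lncRNA8276. The KD group (labelled 8276KD) received a virus for its inhibition. The groups 5NC and 3NC carry abbreviations that the labels do not spell out, and they were taken here as the control groups. OV was compared with 5NC, KD with 3NC, and 5NC with 3NC. The pairing of each treated group with its control is an inference from the order in which the groups are listed, so the value against the other control is also given where it reverses the fold change of a member described here. The sources used here give no age, kind of virus, dose or time after transfection. Nor is it said whether the libraries of a group came from separate animals, so p-values measure only the spread between these samples.

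The proteasome degrades proteins tagged with ubiquitin. Its 20S core is a barrel with outer rings of alpha subunits (Psma genes) and inner rings of beta subunits (Psmb genes), some of which cut the substrate. The 19S cap (Psmc ATPases and Psmd subunits) unfolds the substrate and strips its ubiquitin, and the activators (Psme genes) can cap the core in its place. In immune cells, and in other cells exposed to interferon gamma, newly made cores take up the immune catalytic subunits Psmb9, Psmb10 and Psmb8 in place of Psmb6, Psmb7 and Psmb5, which favours peptides suited to MHC class I. Male germ cells make a core with Psma8 in place of its close relative Psma7, and use the activator Psme4 (PA200), which in mouse takes part in the degradation of histones in spermatids.

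The libraries held 15448442 to 16355720 estimated reads and between 18611 and 18788 genes with reads. Of all genes, 16320 had enough reads to be tested, among them 42 of the 43 members. The spermatocyte and spermatid markers used here were all present. Their summed levels were at least 4079 and 33980 FPKM in every library, where FPKM is a read count scaled to transcript length and library size. Most of the spermatocyte sum was Ldhc, at 2652 FPKM or more, and Pgk2, at 556 FPKM or more. The meiotic gene Msh4 was at 4.38 to 6.55 FPKM. The summed level of 3 epididymis markers (Crisp1, Adam7 and Defb45) was 37.5 to 92.9 FPKM in 5NC, against 9.92 to 24.6 FPKM in the other libraries. In 5NC replicate 1 most of the sum was Defb45, at 29.15 FPKM. Crisp1 was at 8.17, 71.2 and 69.9 FPKM in the 5NC replicates and at 7.13 FPKM in OV replicate 2. Adam7 was at 0.17, 1.53 and 5.31 FPKM in the 5NC replicates and at 0.34 FPKM in OV replicate 2. KD replicate 2 held Crisp1 at 5.48 FPKM and Adam7 at 0.43 FPKM, and 3NC replicate 3 held Crisp1 at 4.55 FPKM. The part of that tissue in the results below was not tested. The level of lncRNA8276 itself was not analysed here.

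Psmb8 and Psmb9 lie side by side in the MHC class II region of chromosome 17, with the peptide transporter gene Tap1 between them. Tap1 lies 226 bases from Psmb9 and 970 bases from Psmb8, and Tap2, the gene of the other transporter subunit, lies 3025 bases beyond Psmb8. Psme1 and Psme2, which form the PA28 activator ring, lie 5913 bases apart on chromosome 14, and Psmb5 lies 7315 bases from Psmb11 on the same chromosome. Psmb10 lies at 105935728 to 105938392 of chromosome 8, and Psme4 at 30771775 to 30881150 of chromosome 11. RefSeq (GRCm38.p6) gave a window from 250 bases before to 50 bases after the start site for 36 of the 43 members. Windows for Psma8, Psmb1, Psmb2, Psmb7, Psmc3, Psmd3 and Psmd7 were not used here. The 4 windows below belong to the 3 immune genes in which a searched motif was found and to Psmb5, the constitutive counterpart of Psmb8. The windows of the immune genes Psmb10 and Psme2 held none of the motifs searched and are not shown. Capitals mark the letters matched by the motif named after each gene.
Psmb8 (chr17:34197945-34198244, plus strand, gamma-activated site): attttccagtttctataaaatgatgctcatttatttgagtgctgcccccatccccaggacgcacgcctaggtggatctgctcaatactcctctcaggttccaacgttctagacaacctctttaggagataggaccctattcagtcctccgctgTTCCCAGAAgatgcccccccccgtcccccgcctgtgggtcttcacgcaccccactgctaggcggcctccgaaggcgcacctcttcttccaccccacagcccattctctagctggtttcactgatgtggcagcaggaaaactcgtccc
Psmb9 (chr17:34187281-34187580, minus strand, CCAAT box): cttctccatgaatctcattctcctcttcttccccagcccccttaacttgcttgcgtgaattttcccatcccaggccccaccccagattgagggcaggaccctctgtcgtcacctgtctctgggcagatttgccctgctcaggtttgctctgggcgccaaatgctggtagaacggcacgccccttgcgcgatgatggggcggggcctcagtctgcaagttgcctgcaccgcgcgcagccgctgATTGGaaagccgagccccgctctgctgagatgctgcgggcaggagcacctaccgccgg
Psme1 (chr14:55578244-55578543, plus strand, interferon-stimulated response element): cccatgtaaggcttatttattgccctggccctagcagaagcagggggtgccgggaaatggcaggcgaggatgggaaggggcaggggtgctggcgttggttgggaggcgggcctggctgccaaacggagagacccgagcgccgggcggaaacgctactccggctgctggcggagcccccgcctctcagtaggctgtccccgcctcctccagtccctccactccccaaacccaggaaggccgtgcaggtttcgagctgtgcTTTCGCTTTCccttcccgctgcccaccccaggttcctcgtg
Psmb5 (chr14:54617946-54618245, minus strand, antioxidant response element): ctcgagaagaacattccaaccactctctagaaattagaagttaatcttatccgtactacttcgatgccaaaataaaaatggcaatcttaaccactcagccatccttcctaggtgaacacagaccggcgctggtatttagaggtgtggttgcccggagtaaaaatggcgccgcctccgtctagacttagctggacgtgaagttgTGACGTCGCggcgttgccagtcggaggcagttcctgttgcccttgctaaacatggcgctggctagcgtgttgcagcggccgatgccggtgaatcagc

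The motifs were searched on both strands of these windows. Members were counted by gene, over 36 genes with 39 windows, whereas the percentages of all windows count each window. These are not the same measure. The gamma-activated site (TTCNNNGAA) began at position -97 relative to the start of Psmb8 and was also present in the window of Psmd2, and 8.30% of all 32851 windows held it. The interferon-stimulated response element (GAAA, NN, GAAA) began at position 10 of Psme1 and was also present for Psmb3, Psmd4 and Psmd9, against 3.44% of all windows. The antioxidant response element (TGACNNNGC) began at position -47 of Psmb5 and was found for 6 members (Psmb5, Psmb6, Psmc6, Psmd12, Psmd9 and Psme4), against 12.4% of all windows. The CCAAT box began at position -8 of Psmb9 and was found for 14 members, against 37.4% of all windows, with any overlap with the other motifs left in place. The cyclic AMP response element (TGACGTCA) was found for 0 members and in 1.79% of all windows. No motif was found in more than 1 of the 5 immune genes.

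Of the 42 members tested, the immune catalytic subunits differed most between libraries. Their mean level in OV was above that in 5NC for each of the 3, by 2.13 to 3.59 times in the fit, while the constitutive subunits that they replace had slightly lower means. None of these differences passed the test used here, edgeR's quasi-likelihood test with Benjamini-Hochberg adjustment over all 16320 genes, in which a gene is called at an adjusted p under 0.05. A fit that compares OV and 5NC within replicate numbers called all 3. In bulk tissue, fewer cells of a type and less RNA per cell cannot be told apart.

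Psmb8 (LMP7, the immune form of the chymotrypsin-like subunit) was at 16.1, 16.3 and 7.40 FPKM in OV, against 4.72, 4.72 and 1.75 FPKM in 5NC. It was at 1.39, 1.83 and 1.61 FPKM in KD, against 1.40, 6.91 and 1.43 FPKM in 3NC. All 3 OV libraries lay above the other 9, and 3NC replicate 2 stood apart from the other libraries of its group. The mean level was 13.3 ± 5.07 FPKM in OV and 3.73 ± 1.72 FPKM in 5NC (SD, n = 3 each), with 687 reads in the OV libraries and 190 in the 5NC libraries. The log2 fold change of OV against 5NC was 1.85 ± 0.59 (SE), and edgeR's adjusted p was 0.407.

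Psmb9 (LMP2, the immune form of the caspase-like subunit) was at 15.6, 18.6 and 5.77 FPKM in OV, against 3.89, 5.96 and 1.59 FPKM in 5NC. It was at 2.39, 1.03 and 2.19 FPKM in KD, against 2.15, 4.13 and 1.61 FPKM in 3NC. OV replicate 3 lay just below the highest 5NC library, so these groups overlapped, while OV replicates 1 and 2 lay above all other libraries. The log2 fold change of OV against 5NC was 1.78 ± 0.53 (edgeR, adjusted p = 0.404), with 477 reads in OV and 137 in 5NC.

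Psmb10 (MECL-1, the immune form of the trypsin-like subunit) was at 10.8, 12.9 and 4.08 FPKM in OV, against 5.14, 4.58 and 3.31 FPKM in 5NC. It was at 2.37, 4.09 and 2.88 FPKM in KD, against 2.37, 4.44 and 3.65 FPKM in 3NC. Again OV replicates 1 and 2 were the highest of all libraries and OV replicate 3 lay within the 5NC range. The log2 fold change of OV against 5NC was 1.09 ± 0.37 (edgeR, adjusted p = 0.407).

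The activator pair showed smaller differences. Psme1 (PA28 alpha) was at 28.5, 33.3 and 18.6 FPKM in OV, against 27.3, 23.6 and 19.2 FPKM in 5NC. Psme2 (PA28 beta) was at 34.4, 31.8 and 24.2 FPKM in OV, against 28.0, 23.9 and 20.3 FPKM in 5NC. Both genes overlapped between OV and 5NC, with log2 fold changes of 0.21 ± 0.19 and 0.33 ± 0.16 (edgeR, adjusted p = 0.663 and 0.487). Reads of Psme2 may be shared with the near-copy Psme2b on chromosome 11, which was listed at 0 to 0.51 FPKM.

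**Figure D1:**
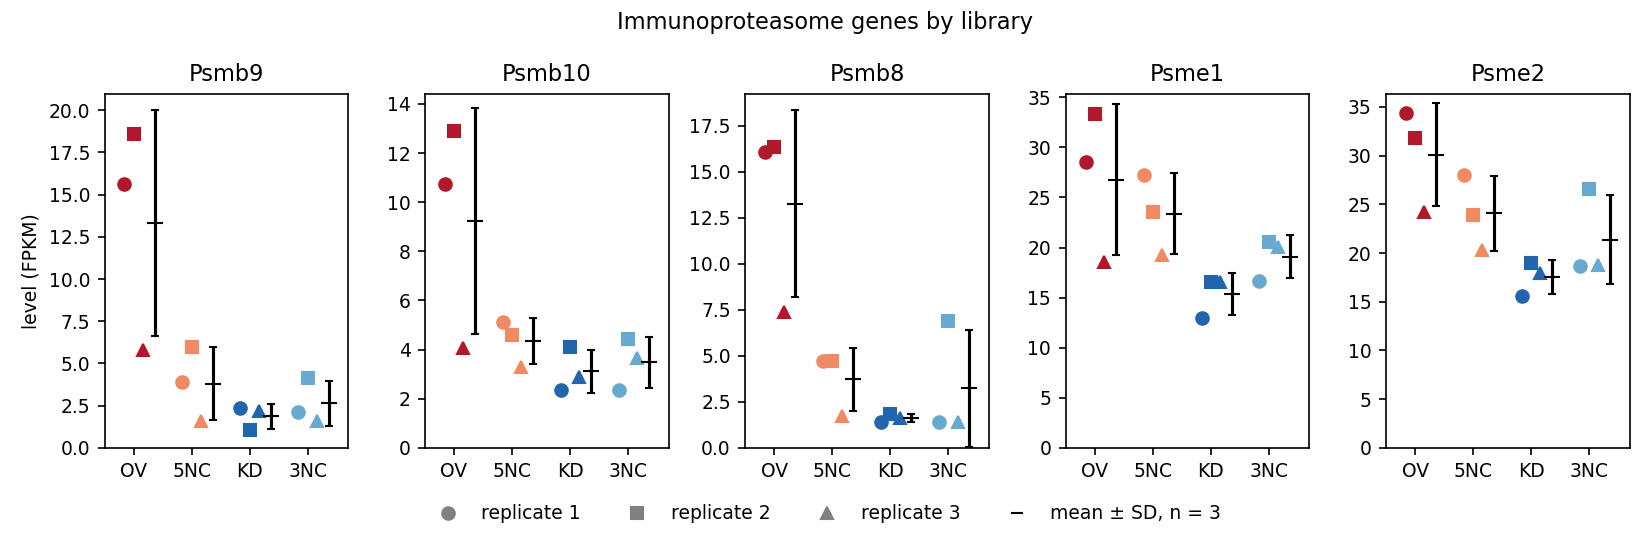
Level (FPKM) of the 5 immunoproteasome genes in each library by group, with replicates as separate symbols and the mean ± SD of 3 libraries beside them. Psmb8 reaches 7.40 to 16.3 FPKM in OV and 1.75 to 4.72 FPKM in 5NC, and OV replicate 3 is the lowest OV library for all 5 genes.

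Replicate numbers in OV and 5NC met the rule for pairing, since same-numbered libraries deviated together, and the fit of these 6 libraries with the replicate number as a block gave similar fold changes with smaller errors. In that fit the log2 fold change was 1.87 ± 0.18 for Psmb8, 1.80 ± 0.20 for Psmb9 and 0.99 ± 0.20 for Psmb10. edgeR's adjusted p values were 1.05e-09, 6.32e-08 and 0.00562, so in this fit these 3 genes were called higher in OV than in 5NC. The p-values hold only if the replicate numbers pair the samples. That pairing was read from these same libraries, and the labels do not state it. These 3 genes were the 3 members called there, against 1.35% of all genes called in the same fit. The same block in the fit of all 4 groups called 0 members. Both statements rest on 3 libraries a group, and leaving out any 1 library from the unblocked fit kept the fold changes between 1.51 and 2.13 for Psmb8, 1.41 and 2.28 for Psmb9, and 0.78 and 1.45 for Psmb10. Without 8276OV replicate 3 and 3NC replicate 2, a setting chosen after seeing the data, the unblocked fit called Psmb8 and Psmb10, at 2.13 and 1.44.

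Against 3NC, OV had log2 fold changes of 2.03 for Psmb8, 2.34 for Psmb9 and 1.40 for Psmb10 (edgeR, adjusted p = 0.453, 0.201 and 0.282). None was called. Psme1 and Psme2 were at 0.49 and 0.50 in that comparison.

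Across all members, edgeR called 0 of 42 in OV against 5NC, where it called 0.0% of all genes. The smallest adjusted p over all genes was 0.239. At an unadjusted p under 0.05, 4 members were higher in OV (Psmb8, Psmb9, Psmb10 and Psme4), against 5.61% of all genes, and 2 were lower (Psmb5 and Psmd4), against 4.79% of all genes. All 3 OV libraries lay above all 3 5NC libraries for 2 members (Psmb8 and Psme4), against 7.64% of all genes, and below them for 3 members (Psmb5, Psmb7 and Psmd4), against 7.56% of all genes. Overlap was read on TMM-scaled counts, and by FPKM Psmc5, Psmd9 and Psmd13 also lay below. The share of members with a higher mean and an unadjusted p under 0.05 was 9.52%, and the other 3 shares were below those of all genes. DESeq2 also called 0 members in this and each of the comparisons below. By group, 5 of 5 immune genes had a higher mean in OV, with a median log2 fold change of 1.09, while the 35 other members tested had a median of -0.02 and ranged between -0.21 and 0.19. The median over all genes tested was -0.00195.

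**Figure D2:**
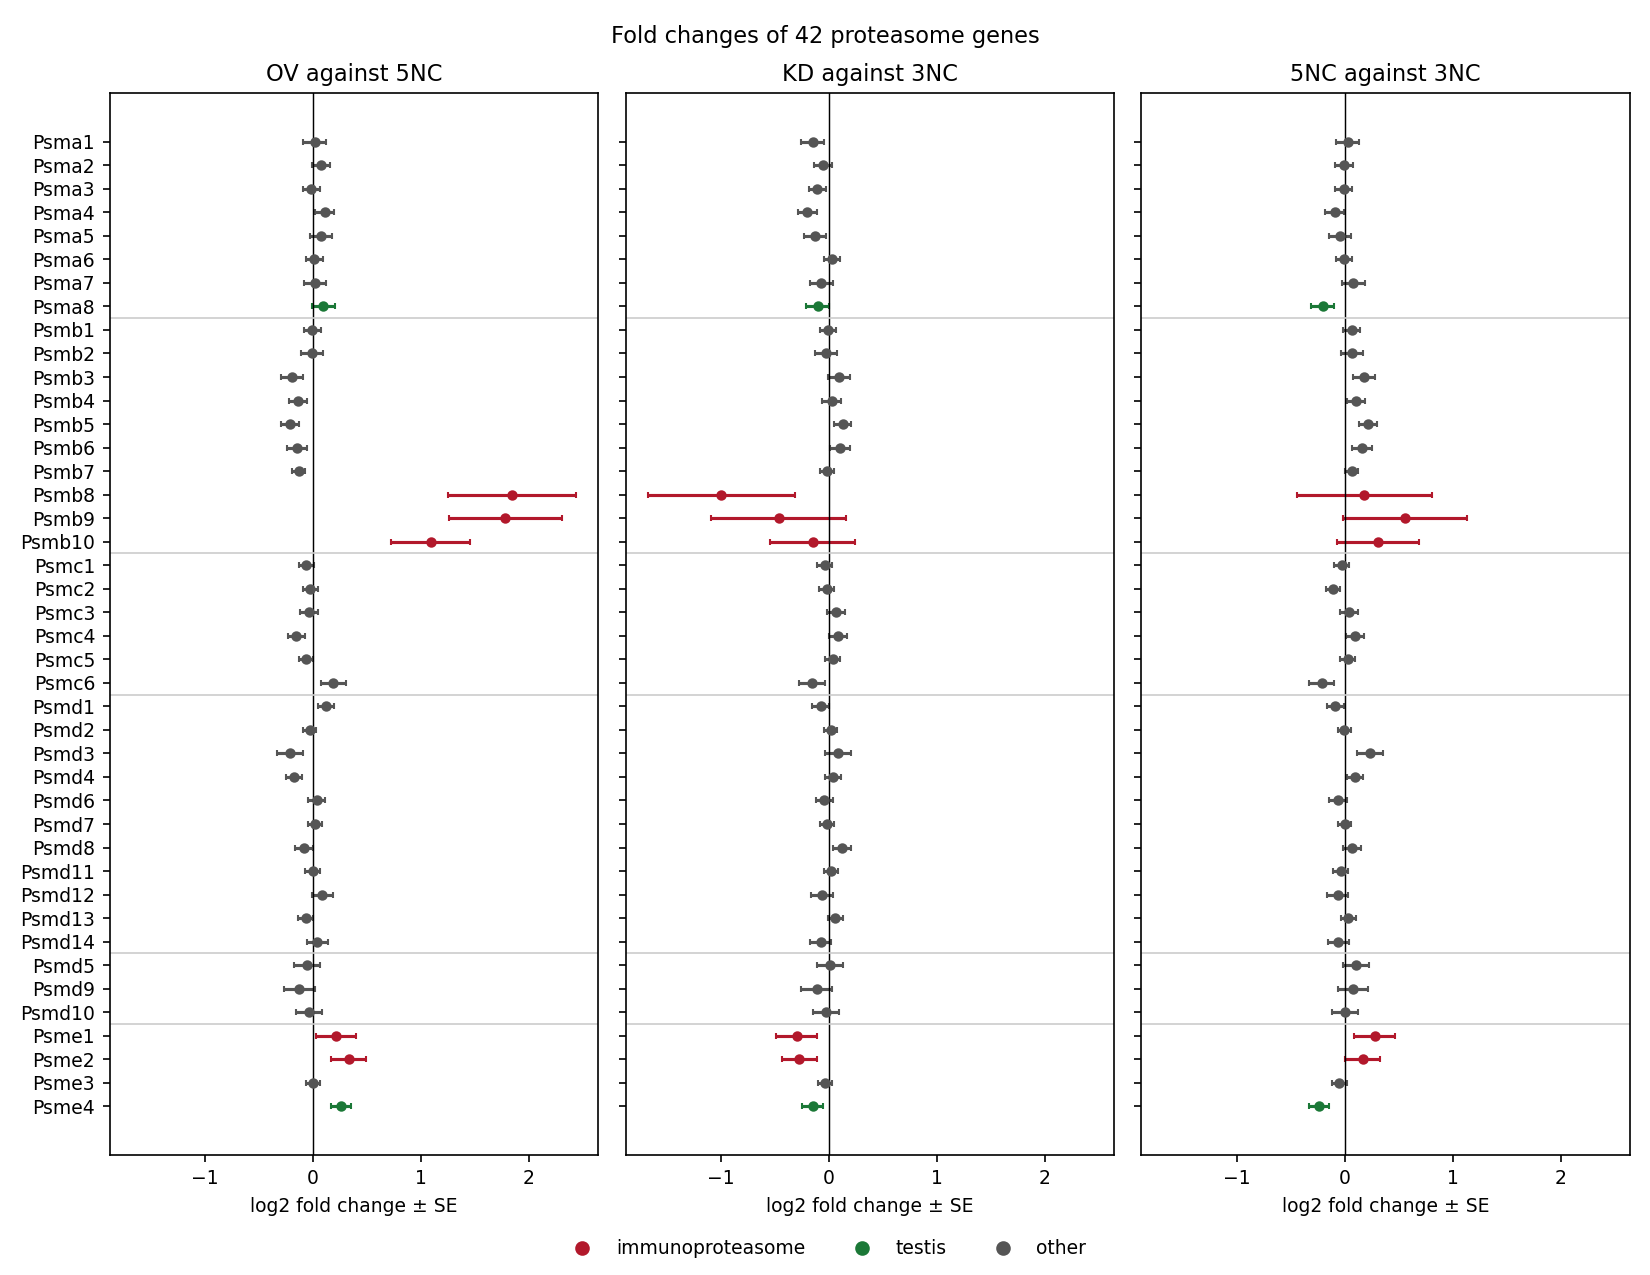
Log2 fold change ± SE of the 42 tested members in OV against 5NC, KD against 3NC and 5NC against 3NC, ordered by role from the alpha subunits at the top to the activators at the bottom. In OV against 5NC, Psmb8, Psmb9 and Psmb10 lie at 1.85, 1.78 and 1.09, and the 35 members outside the immune and testis groups lie within 0.25 of 0 in each comparison.

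The immune form took a larger part of each catalytic pair in OV than in 5NC by mean. By FPKM, Psmb8 made up 17.2%, 16.7% and 8.94% of Psmb8 plus Psmb5 in OV, against 4.82%, 5.00% and 1.91% in 5NC. Psmb9 made up 12.3%, 12.9% and 5.14% of Psmb9 plus Psmb6 in OV, against 2.86%, 4.37% and 1.29% in 5NC. For both pairs each OV library was above each 5NC library. Psmb10 made up 6.39%, 7.43% and 2.26% of Psmb10 plus Psmb7 in OV, against 2.64%, 2.52% and 1.78% in 5NC, where the groups overlapped. The log2 ratios differed by 2.10 for Psmb8, 1.997 for Psmb9 and 1.10 for Psmb10, with exact permutation p = 0.1, 0.1 and 0.3, two-sided. Adjusted over 9 tests these were 0.45, 0.45 and 0.8, and 0.1 is the smallest p that 3 libraries against 3 allow. In KD the shares were 1.56% to 2.13%, 0.833% to 1.99% and 1.35% to 2.41% for the 3 pairs in the same order, and the constitutive form was the larger in all 12 libraries.

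**Figure D3:**
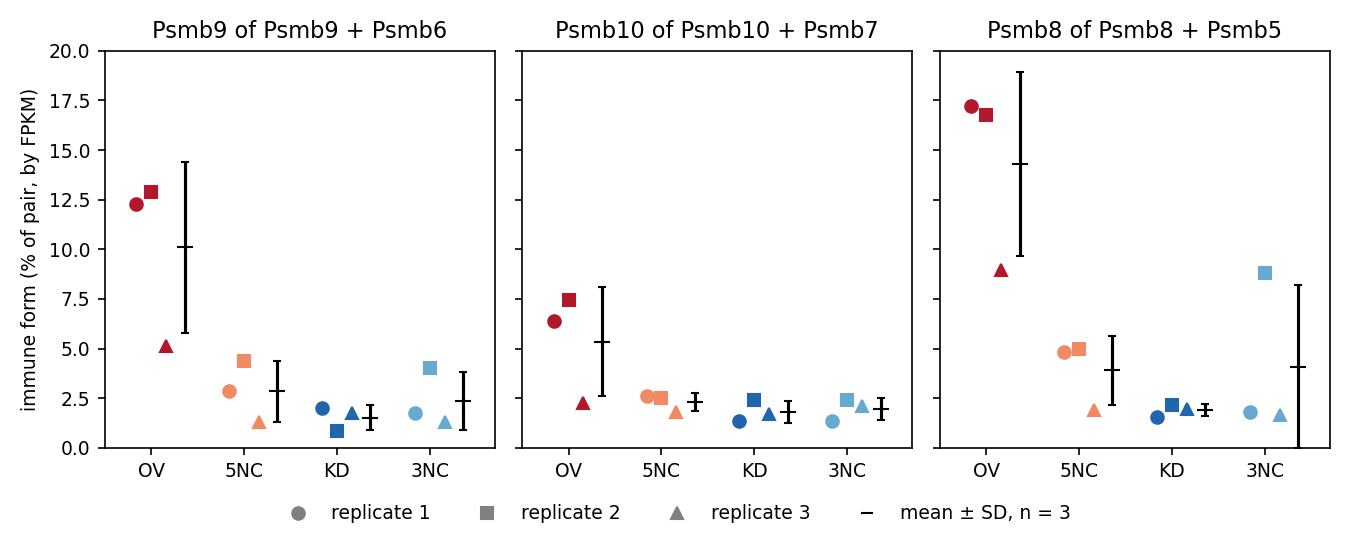
Share of each catalytic pair taken by its immune form (%, by FPKM) in each library, with the mean ± SD of 3 libraries. Psmb8 takes 8.94% to 17.2% in OV and 1.91% to 5.00% in 5NC, and 3NC replicate 2 is at 8.82%.

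The constitutive beta subunits had lower means in OV than in 5NC for 7 of 7 members tested, with a median log2 fold change of -0.14. Psmb5 (the chymotrypsin-like subunit) was at 77.1, 81.2 and 75.4 FPKM in OV, against 93.1, 89.7 and 89.9 FPKM in 5NC, and the groups did not overlap. Its log2 fold change was -0.21 ± 0.08 (edgeR, adjusted p = 0.436). Psmb6 (caspase-like) averaged 115 ± 10.03 FPKM in OV and 128 ± 5.49 FPKM in 5NC, and Psmb7 (trypsin-like) averaged 165 ± 10.2 FPKM in OV and 183 ± 6.47 FPKM in 5NC (SD, n = 3 each). Against 3NC, 3 of the 7 had lower means in OV and 4 had higher ones, with a median of 0.00, and Psmb5, Psmb6 and Psmb7 were at 0.00, 0.01 and -0.07. In 5NC against 3NC, which shares 5NC with the comparison above, the same 7 genes had higher means in 5NC, with a median of 0.10. Psmb5 averaged 90.9 ± 1.92 FPKM in 5NC and 77.6 ± 6.66 FPKM in 3NC (SD, n = 3 each), with a log2 fold change of 0.22 ± 0.08 (edgeR, adjusted p = 0.363). The thymus subunit Psmb11 was listed at 0 to 0.09 FPKM in every library and did not pass the filter.

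The testis genes were among the higher members. Psme4 (PA200) was at 136, 128 and 149 FPKM in OV, against 110, 116 and 122 FPKM in 5NC, and the groups did not overlap. It was at 122.56, 122.96 and 118 FPKM in KD, against 127, 157 and 121 FPKM in 3NC. Its log2 fold change was 0.26 ± 0.10 in OV against 5NC (edgeR, adjusted p = 0.419), and against 3NC it was 0.02. OV and 3NC overlapped, and 5NC held the lowest 2 libraries of the 12.

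Psma8, the germ cell alpha subunit, was at 86.1, 100.02 and 120 FPKM in OV, against 97.6, 95.3 and 96.8 FPKM in 5NC. It was at 96.5, 102 and 106 FPKM in KD, against 105, 125 and 99.4 FPKM in 3NC. OV spread on both sides of 5NC, and 3NC replicate 2 was the highest of all libraries. Log2 fold changes were 0.10 ± 0.11 in OV against 5NC and -0.10 ± 0.11 in KD against 3NC, and both 95% intervals held 0. Both directions depended on the control, since OV was at -0.11 against 3NC and KD at 0.10 against 5NC. Psma8 made up 71.3% to 79.8% of Psma8 plus Psma7 by FPKM. Psma7, its relative in other tissues, averaged 32.9 ± 1.22 FPKM in OV and 32.8 ± 5.68 FPKM in 5NC (SD, n = 3 each). Psme3 (PA28 gamma, the nuclear activator) averaged 55.3 ± 3.00 FPKM in OV and 55.7 ± 1.39 FPKM in 5NC (SD, n = 3 each), and its log2 fold change of 0.00 had a 95% interval of -0.13 to 0.13 and was -0.05 against 3NC. Among spermatocyte markers, 10 of 11 had higher means in OV than in 5NC (median log2 fold change 0.14), 2 of 11 had higher means in KD than in 3NC (median -0.10), and their part in the values of Psma8 and Psme4 was not tested.

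In KD against 3NC, edgeR called 0 of 42 members, against 0.178% of all genes. At an unadjusted p under 0.05, 0 members were higher, against 2.53% of all genes, and 1 was lower, against 3.47%. That gene was Psma4, an alpha subunit, at 67.9, 68.3 and 69.5 FPKM in KD, against 74.6, 89.1 and 73.7 FPKM in 3NC. Its log2 fold change was -0.20 ± 0.09 (edgeR, adjusted p = 0.764). The 3 KD libraries lay above all 3 3NC libraries for 0 members, against 7.72% of all genes, and below them for 1, against 8.74%. By FPKM Psmd8 also lay above, and Psma2, Psmc1 and Psme1 also below. All 5 immune genes had lower means in KD, with a median log2 fold change of -0.30, led by Psmb8 at -0.996 ± 0.68 (edgeR, adjusted p = 0.764). 3NC replicate 2 decided this value: without it the log2 fold change of Psmb8 was 0.19 and the median of the 5 genes was 0.04. Psme1 and Psme2 were at -0.30 ± 0.19 and -0.27 ± 0.17. Psmd8 (0.12), Psmc4 (0.08) and Psmb3 (0.09) had higher means in KD, and Psma1 (-0.15) and Psmc6 (-0.16) had lower ones. Psmb5, Psmb6 and Psme4 were at 0.13, 0.10 and -0.15 in KD against 3NC and at -0.09, -0.06 and 0.09 in KD against 5NC, so these directions depended on the control. The same held for Psmc6, Psmc4 and Psmb3, which were at 0.06, -0.01 and -0.09 against 5NC.

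In 5NC against 3NC, which shares a control with each comparison above, edgeR called 0 of 42 members, against 0.362% of all genes. At an unadjusted p under 0.05, 1 member was higher (Psmb5), against 5.94% of all genes, and 1 was lower (Psme4), against 6.15%. The 3 libraries of 5NC lay above all 3 of 3NC for Psmb5, Psmb7 and Psmd3, against 8.13% of all genes. They lay below them for Psma8 and Psme4, against 8.72%, on TMM-scaled counts, while the FPKM ranges of Psmb7 and Psme4 overlapped. The log2 fold changes of Psma8 and Psme4 were -0.20 ± 0.11 and -0.24 ± 0.10 (edgeR, adjusted p = 0.449 and 0.384). Spermatocyte markers had lower means in 5NC for 9 of 11 genes (median -0.18) and Sertoli markers higher means for 8 of 8 (median 0.27), and their part in these values was not tested.

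Whether OV shifted the members differently from KD was tested as a contrast of both fold changes. edgeR called 0 of 42 members, against 0.0613% of all genes. At an unadjusted p under 0.05, 6 members were higher (Psmb8, Psmb9, Psmb10, Psme2, Psme4 and Psma4), against 8.73% of all genes, and 1 was lower (Psmb5), against 6.96%. For Psmb8 the difference between the log2 fold changes was 2.84 ± 0.90, and edgeR's smallest adjusted p among members was 0.257. The KD part of that difference depended on 3NC replicate 2, without which Psmb8 was at 0.19 in KD against 3NC. The contrast also rests on both inferred pairings of group and control. Against the other control, Psmb5 was at 0.00 in OV and -0.09 in KD, and Psme4 at 0.02 and 0.09. A contrast with the controls swapped was not fitted.

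The other members of the core and cap varied little. Over the 12 libraries the coefficient of variation of 35 members had a median of 6.92%, between 2.34% for Psmd2 (a 19S scaffold subunit) and 12.2% for Psmd9, whereas it was 100% for Psmb8, 106% for Psmb9 and 65.6% for Psmb10. Levels differed much more between genes than between groups. Psma6 was the highest alpha subunit at 515 FPKM averaged over 12 libraries, and Psma1 the lowest at 24.3. Psmc3 led the ATPases at 420 FPKM and Psmd8 the non-ATPase subunits at 186 FPKM, while the assembly chaperones Psmd5, Psmd9 and Psmd10 stayed between 8.54 and 10.99 FPKM. In OV against 5NC, Psmd4 (a ubiquitin receptor) was at -0.17 ± 0.07, Psmb3 at -0.19 ± 0.10 and Psmc4 at -0.15 ± 0.08 on the log2 scale, and Psmc6, Psmd1 and Psma4 were at 0.19, 0.12 and 0.11. Against 3NC, OV was at -0.08 for Psmd4, -0.01 for Psmb3 and -0.06 for Psmc4. Psmc6, Psmd1 and Psma4 were at -0.02, 0.03 and 0.02 in that comparison. None was called by edgeR.

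**Figure D4:**
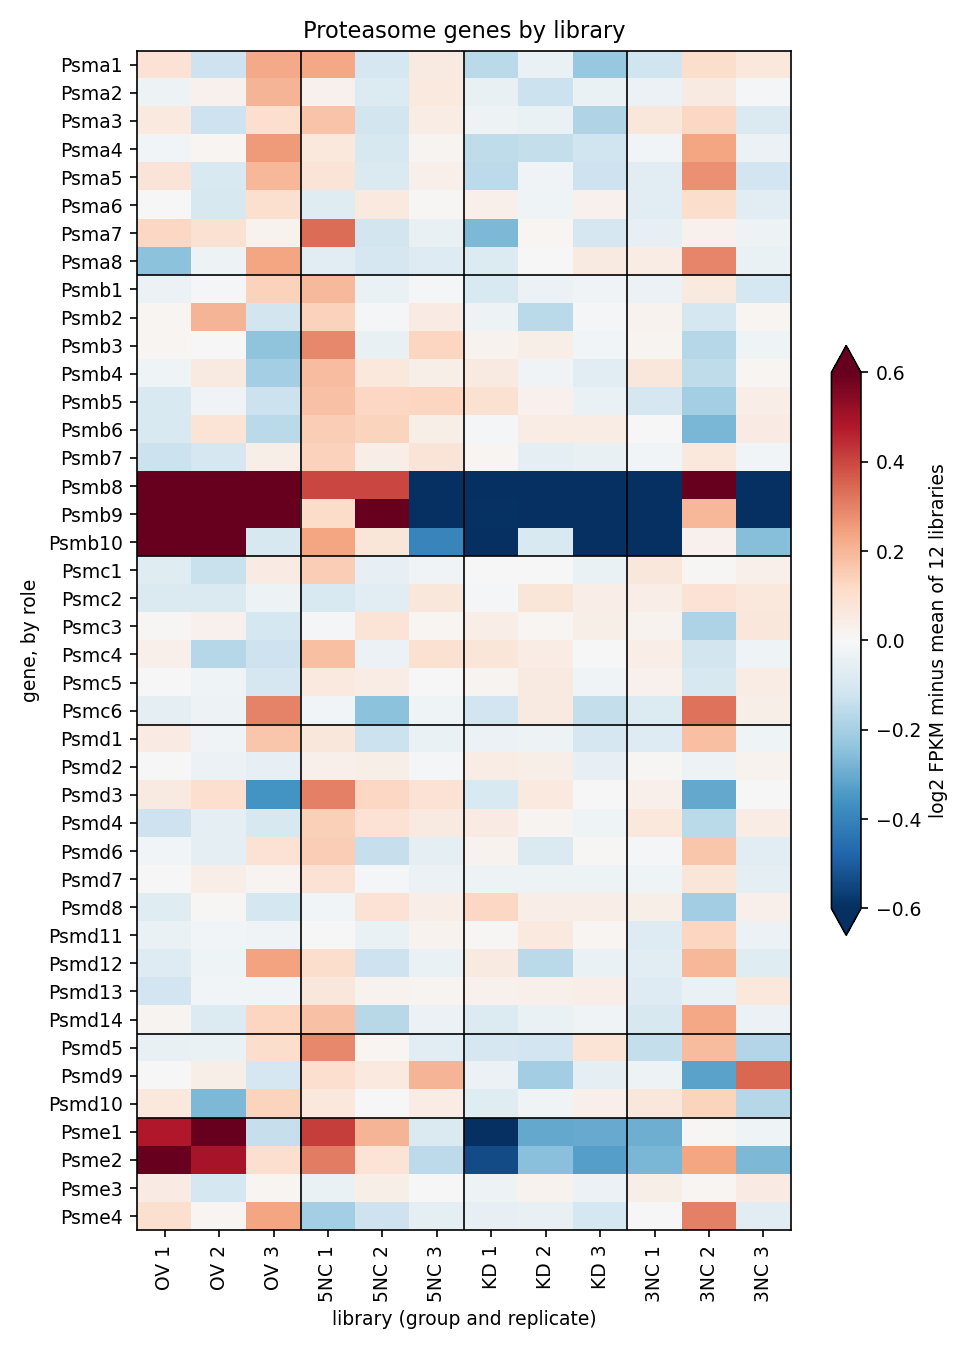
Log2 FPKM of 42 members in each library relative to the mean of the 12 libraries, ordered by role, with colours saturating at 0.6. The rows of Psmb8, Psmb9 and Psmb10 reach the ends of the scale, and outside the immune group 5NC replicate 1 is the highest library for 17 members and 3NC replicate 2 for 11.

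Some libraries lay at the ends of the range more often than others. Over 37 members outside the immune group, on TMM-scaled counts, 3NC replicate 2 was the highest library for 9 and the lowest for 7, 43.2% against 33.1% of all genes. 5NC replicate 1 was the highest for 6 and the lowest for 6, 32.4% against 33.4% of all genes. 5NC replicate 2 was the highest for 7 and the lowest for 4, 29.7% against 18.9% of all genes, and OV replicate 3 the highest for 8 and the lowest for 3, 29.7% against 25.8%. By FPKM, which was not rescaled by TMM, 5NC replicate 1 was the highest for 17 and the lowest for 2, 3NC replicate 2 for 11 and 6, and OV replicate 3 for 3 and 5.

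The genes most like Psmb8 across the 12 libraries, outside the members and ranked by Spearman's rho of log2 CPM (reads scaled to library size), were Rtp4 (0.98), Clec2d (0.97), Trim21 (0.95), B2m (0.95) and Cd74 (0.94). Among members Psmb10 and Psme2 (both 0.88), Psmb9 (0.78), Psmd7 (0.73) and Psme1 (0.71) followed. These are descriptions, since the libraries share their groups.

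Genes of MHC class I antigen processing, a list chosen with results of these data in view, had higher means in OV than in 5NC for 8 of 9, with a median log2 fold change of 1.002. None was called by edgeR over all groups, and 6 were called, all higher, in the blocked fit of 6 libraries, against 1.35% of all genes in either direction. Tap1, the neighbour of Psmb9 and Psmb8, was at 9.39, 11.99 and 3.20 FPKM in OV, against 2.29, 5.41 and 1.04 FPKM in 5NC. H2-D1, a class I heavy chain, was at 128, 96.0 and 103 FPKM in OV, against 48.7, 28.0 and 29.4 FPKM in 5NC. Tap1 overlapped between these groups and H2-D1 did not. Of 8 tested genes of the interferon axis 4 had higher means in OV and 4 had lower ones, 0 were called by edgeR and 3 in the blocked fit, where 1.35% of all genes were. Among the higher was Nlrc5, a class I transactivator, at 2.01, 1.73 and 1.5 FPKM in OV against 0.83, 0.84 and 0.83 FPKM in 5NC. Its difference depended on the control, since 3NC was at 1.85, 1.46 and 1.1 FPKM and overlapped OV. The log2 fold change of Nlrc5 was 1.05 in OV against 5NC and 0.27 in OV against 3NC. Ifng itself had 3 reads in all 12 libraries.

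Leukocyte markers also had higher means in OV. Of 16 tested markers 14 had higher means in OV than in 5NC, with a median log2 fold change of 0.84. At an unadjusted p under 0.05, 10 were higher, against 5.61% of all genes, and 1 was lower, against 4.79%. edgeR called 0 of them, and 7 in the blocked fit, against 1.35% of all genes. The summed level of all 18 markers was 185, 105 and 76.3 FPKM in OV, against 92.8, 111 and 106 FPKM in 5NC. Cd52, which the epididymis also makes, contributed 51.4 and 55.7 FPKM of this in 5NC replicates 2 and 3. Without it, a step chosen after its values were seen, the sum was 170, 96.8 and 71.0 FPKM in OV, against 83.2, 59.5 and 49.96 FPKM in 5NC. The sum of all 18 was 46.2 to 65.6 FPKM in KD, against 45.3 to 71.0 FPKM in 3NC. None of the 18 was at 0 in all libraries, the lowest being Cd3e with 37 reads in total. The part of leukocytes in the immunoproteasome values was not tested.

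**Figure D5:**
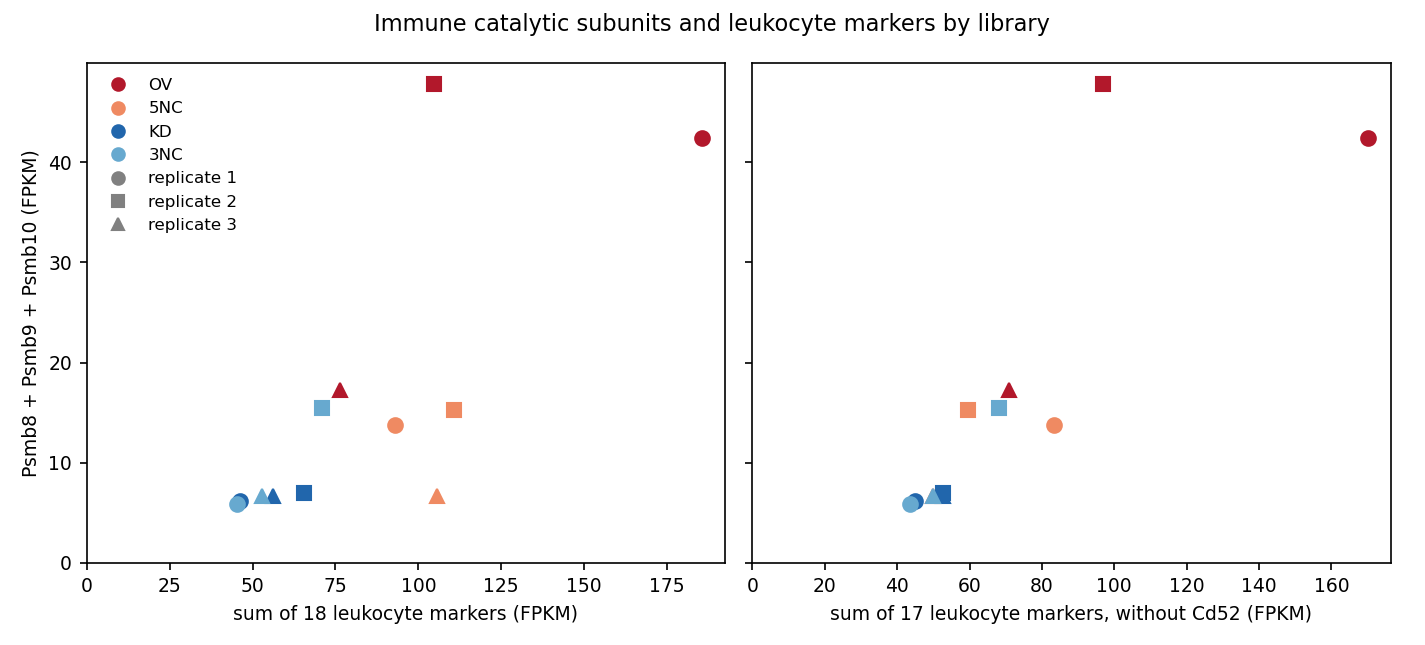
Sum of Psmb8, Psmb9 and Psmb10 (FPKM) against the sum of leukocyte markers (FPKM) in each library, with 18 markers on the left and 17 without Cd52 on the right. OV replicates 1 and 2 lie highest on the y axis at 42.4 and 47.8 FPKM, and OV replicate 3 lies at 17.3 FPKM.

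Other genes of the proteasome system showed no called difference. Of 5 assembly chaperones of the core, 7 proteins bound to the proteasome and 4 genes around NRF1, the factor that activates proteasome genes, edgeR called 0 in each comparison. Their list medians in OV against 5NC were -0.01, -0.04 and -0.05 on the log2 scale. Ecpas, which tethers proteasomes, was at 0.20 ± 0.09 in OV against 5NC. Markers of Leydig cells and peritubular cells had lower means in OV than in 5NC for 6 of 6 and 4 of 4 genes, and Sertoli markers for 7 of 8. 5NC replicate 1 had the highest sum of all libraries in each of these lists. The peritubular sum was 38.91, 30.85 and 35.46 FPKM in 5NC, against 27.93, 21.72 and 23.24 FPKM in OV. The Leydig sum was 4362, 2111 and 2475 FPKM in 5NC, against 1815, 1875 and 2216 FPKM in OV. The Sertoli sum was 188.8, 120.9 and 121.8 FPKM in 5NC, against 116.5, 107.8 and 104.8 FPKM in OV.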

How the data were processed

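Total RNA of 12 testis samples was sequenced by the submitters. Per the file headers, the authors deposited estimated counts per gene (88% whole within 1e-06, rounded here for testing) and a normalised value, for which the unit FPKM was inferred here from how value per read follows transcript length and library total. The build is mm10, per the submitters' processing notes. The sources used here name no aligner, counter, annotation or strandedness, so reads of overlapping, antisense or near-identical genes cannot be told apart. A further 18 per-sample columns of the table belong to no sample here and were not used.

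Libraries held 15448442 to 16355720 estimated reads. Groups and replicate numbers came from the sample titles. The counts of all 4 groups were fitted together with edgeR 4.0.16 in R 4.3.3 (TMM factors, minimum count 10 and minimum total 15, robust quasi-likelihood test), which kept 16320 genes, and p-values were adjusted over all of them by the Benjamini-Hochberg method at 0.05. Log2 fold changes are fitted values and levels are FPKM. 95% intervals are the estimate ± the normal quantile times its SE. DESeq2 1.42.0 and limma 3.58.1 on log2(FPKM + 0.1) or log2(FPKM + 1), a replicate block, other scalings and filters, the other control, and each library left out were the alternatives. The fits were tested on simulated data. Ratios of catalytic pairs were compared by exact permutation.

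Residuals of same-numbered libraries correlated at 0.165, 0.149 and 0.109 between OV and 5NC, all above 0.1, so those numbers were treated as pairing the samples. The labels do not say what a number stands for.

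Named in full were the immune and testis genes, their counterparts and Psmb11, then any called member and the 3 other members of smallest p in each direction of a comparison. The members and gene lists were chosen with earlier results of these data known.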

Additional observations from a re-analysis of the deposited data

How the results depend on the processing

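Counts of called genes depended on the setting and most single-gene directions did not. Of 1368 single-gene values over the alternatives, 1308 kept their direction and side of the threshold, 5 became called and 55 changed sign, 0 of them called in the fit reported. In OV against 5NC, 0 genes were called in the fit reported, 215 with the replicate block in the 6 libraries alone, 52 against 3NC, 3 against both controls together, 50 by DESeq2, 1 by limma on log2(FPKM + 0.1) with or without the filter on low values, and 0 to 5 when 1 library was left out. Members called were 3 with that replicate block and 2 without 8276OV replicate 3 and 3NC replicate 2, a setting chosen after seeing the data that called 36 genes. In KD against 3NC, 29 genes were called in the fit reported, 77 with the replicate block, 8 against 5NC, 3 against both controls, 71 by DESeq2, 14 by limma on log2(FPKM + 0.1) with or without the filter, 18 without those 2 libraries, and 10 to 34 when 1 was left out. In 5NC against 3NC, 59 were called, 94 with the replicate block, 148 by DESeq2, 28, 33 and 32 by limma on log2(FPKM + 0.1), on log2(FPKM + 1) and with no filter, and 16 to 76 when 1 library was left out. The replicate numbers of KD and 3NC correlated at 0.0079, 0.0313 and 0.0558, and those of 5NC and 3NC at -0.0339, 0.0057 and 0.021, below the rule for pairing. The cause of these differences was not tested.

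The median log2 fold change of the other proteasome genes, -0.025 in OV against 5NC, was -0.0448 on library totals, -0.0374 by limma on log2(FPKM + 0.1) with or without the filter, -0.0484 without the 2 libraries, and -0.049 to -0.0147 when 1 library was left out. In KD against 3NC it was -0.0177, -0.004598 without the 2 libraries, and -0.02648 to -0.00261 when 1 was left out. In 5NC against 3NC it was 0.027, 0.0556 on library totals, 0.0435 by limma on log2(FPKM + 0.1) with or without the filter, 0.04264 on log2(FPKM + 1), and 0.0118 to 0.03778 when 1 was left out. The immune medians moved by less than the spread between replicates, though in KD against 3NC without 3NC replicate 2 the median was 0.04. Against the other control, OV values changed sign for Psma8 (-0.106), Psmb5 (0.00461), Psmb6 (0.0121), Psmc6 (-0.025) and Psme3 (-0.04997), and KD values for Psma8 (0.102), Psme4 (0.0866), Psmb5 (-0.0913), Psmb6 (-0.0551), Psmb3 (-0.0887), Psmc4 (-0.01355), Psmc6 (0.0553) and Psme3 (0.01497). Against both controls, Psma8 was at -0.00467 in OV and 0.000194 in KD, and Psme3 at -0.0249 in OV.

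Psme3 in OV against 5NC, 0.00021 in the fit reported, was -0.0199 on library totals, -0.00673 with no filter, -0.006002 with the filter at 1 CPM, -0.0052 in the 6 libraries alone, -0.0048 with the replicate block there, -0.01299 and -0.01277 by limma with 0.1 and 1 added, -0.0157 without the 2 libraries, and -0.04901 to 0.04403 when 1 was left out. On library totals Psma7 was at -0.00733, and without the 2 libraries Psma8 was at -0.0416. When 1 library was left out, Psma7 ran from -0.04945 to 0.1301 and Psma8 from -0.03988 to 0.2091 in OV against 5NC. In KD against 3NC the ranges were -1.352 to 0.1869 for Psmb8, -0.7029 to 0.03598 for Psmb9, -0.3827 to 0.05104 for Psmb10, -0.03568 to 0.002191 for Psmb7 and -0.1309 to 0.005065 for Psma7, and without the 2 libraries Psmb8, Psmb9, Psmb10 and Psmb7 were at 0.187, 0.03596, 0.051 and 0.00212. In 5NC against 3NC they were -0.1679 to 1.371 for Psmb8, -0.02757 to 0.1494 for Psma7 and -0.08265 to 0.001341 for Psme3. The immune catalytic subunits had 67 to 687 reads per group, and in OV against 5NC the SE of their log2 fold changes was 0.37 to 0.59 without the replicate block and 0.18 to 0.20 with it.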
